A study of Mus musculus with 32 samples.

Results

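RNA of megakaryocyte-erythroid progenitors (MEP) was set against RNA of LSK cells in mouse bone marrow on day 3 of tamoxifen, shortly after the Jak2V617F allele had been targeted for deletion. LSK cells are lineage negative, Sca1 positive and Kit positive, and hold the stem cells and multipotent progenitors. The libraries were taken by their labels, which give 4 MEP and 3 LSK libraries for that drug and day, 7 of the 32 libraries of the study. Jak2V617F, an activating form of the kinase gene Jak2, is the commonest driver of myeloproliferative neoplasms. By the labels' protocols, the allele was switched on outside the animal with Dre recombinase mRNA, the cells were given to lethally irradiated recipients, and tamoxifen then set Cre to delete the allele. Every group described here carries genotype Jak2V617F and that history: MEP and LSK cells of day 3 tamoxifen (4 and 3 libraries), and MEP and LSK cells of vehicle-treated mice labelled day 0 (3 and 4 libraries of the same batch, A). The fit behind the tests also took in MEP and LSK libraries of day 7 tamoxifen, of day 7 ruxolitinib (batch C) and of batch C vehicle. These share its scaling and its estimate of the spread. The labels give no age, no driver of Cre, no measure of how complete the deletion was, and no surface gate for MEP beyond its name. A tamoxifen group without the allele was not analysed here, so the drug and the deletion cannot be told apart, and day and drug differ together between the tamoxifen and vehicle groups. The labels do not say which cells came from separate animals, so the spread between libraries may be partly technical.

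Blood formation runs from stem cells through multipotent progenitors to committed progenitors. Erythroid commitment rests on GATA1 with its partners, on erythropoietin signalling through JAK2 and STAT5, and on the later supply of heme, iron and membrane proteins. JAK2 relays the signal of the erythropoietin receptor and other cytokine receptors, and the mutant kinase does so without the hormone.

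Total counts per library were 20969182 to 27068048 in day 3 MEP and 12423165 to 21289019 in day 3 LSK, against 20749870 to 24083993 in vehicle MEP and 13392754 to 28838622 in vehicle LSK. LSK replicate 3 of day 3 was the shallowest of the 7 libraries and had 0.160% of its counts in odorant and pheromone receptor genes, which blood progenitors should lack, against 0.0358 to 0.0801% in day 3 MEP. Levels below are CPM, read counts scaled to a common library size with TMM factors, and differences are log2 values of MEP minus LSK with their standard errors from edgeR's quasi-likelihood fit of all libraries.

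Marker genes bore out both labels in part. The summed CPM of 7 measured erythroid markers was 12820, 9345, 10100 and 7653 in day 3 MEP, against 2790, 1569 and 1093 in day 3 LSK. Car1 made up most of that sum in day 3 MEP. Of the 7 markers, 6 were called higher in MEP, and Klf1 was not called. The sum of 7 stem and multipotent progenitor markers was 31.5, 33.3, 33.6 and 41.0 CPM in day 3 MEP, against 1039, 847 and 385 CPM in day 3 LSK. These sums did not overlap between the cell types. The stem marker sum includes Ly6a, the gene of Sca1, and Cd34, so it may be partly set by the sort. The 5 megakaryocyte markers summed to only 42.8 to 47.2 CPM in day 3 MEP, against 751 to 791 CPM in day 3 LSK, and all 5 were lower in every MEP library, so the MEP libraries carried erythroid markers and few transcripts of the megakaryocyte side of the name.

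Genes of the sort itself are a check and not a result. Ly6a, which encodes Sca1, had 0.450, 0.414, 0.512 and 0.200 CPM in day 3 MEP, against 42.9, 17.7 and 10.9 CPM in day 3 LSK. Kit, the stem cell factor receptor kept by both populations, overlapped between them, with 848, 787, 826 and 568 CPM in day 3 MEP and 832, 588 and 382 CPM in day 3 LSK. Cd34 and Fcgr3, surface genes commonly used to separate MEP from other myeloid progenitors, were at 2.73 to 7.81 and 1.46 to 3.96 CPM in day 3 MEP, against 149 to 568 and 42.1 to 127 CPM in day 3 LSK. Jak2 itself had 23.4, 23.1, 15.4 and 14.9 CPM in day 3 MEP and 15.2, 13.2 and 13.6 CPM in day 3 LSK, which was not called. The deleted part of the allele is not given, so Jak2 counts do not test the deletion.

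The LSK libraries also carried markers of mature cells, unevenly. The sum of 4 macrophage markers was 7.64 to 11.9 CPM in day 3 MEP, against 1394, 706 and 4595 CPM in day 3 LSK replicates 1 to 3. The same sum was 5.21 to 12.1 CPM in vehicle MEP, against 91.7, 57.5, 2005 and 62.9 CPM in vehicle LSK. Both eosinophil markers together reached 433 CPM in day 3 LSK replicate 2 and 4.57 and 1.80 CPM in its other libraries, while the 4 mast cell and basophil markers gave 363, 1693 and 181 CPM. Mature neutrophil markers were low, at 5.75 to 18.0 CPM in day 3 MEP and 19.2 to 28.3 CPM in day 3 LSK. In bulk RNA, fewer cells of a type and less RNA per cell cannot be told apart. The part of these cells in the results below was not tested.

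**Figure D1:**
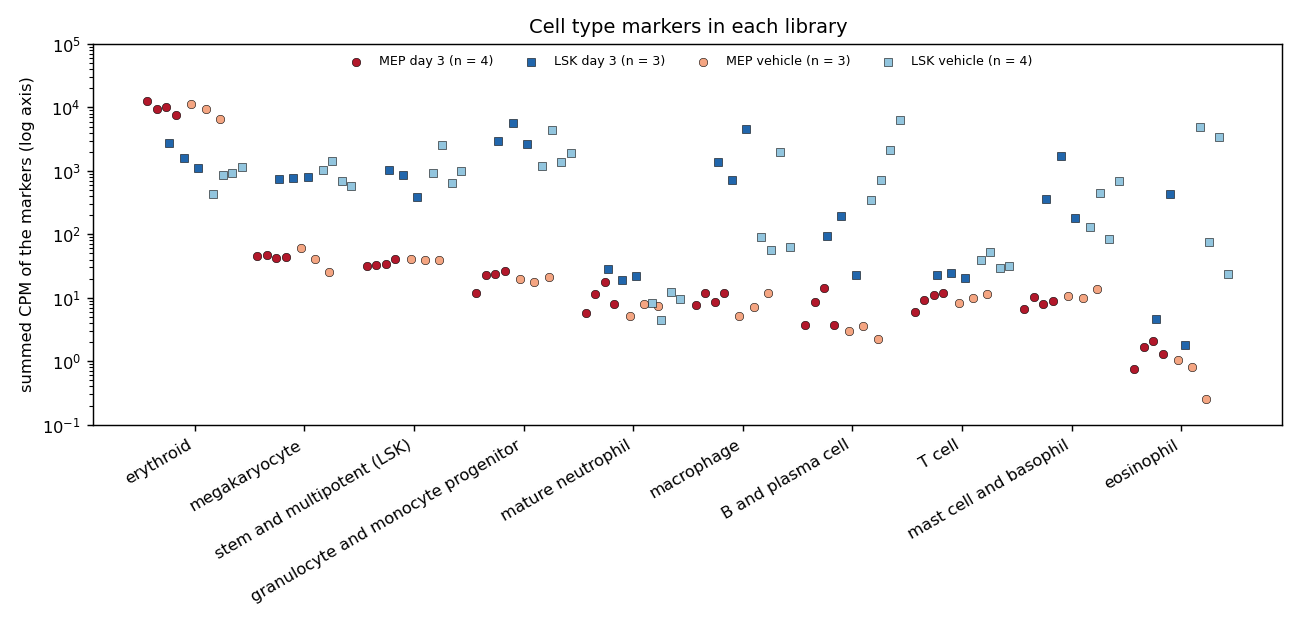
Summed CPM (log axis) of each cell type's markers, with a point for each library, for MEP and LSK at day 3 and under vehicle. Erythroid markers stand highest in MEP, stem, megakaryocyte and granulocyte markers in LSK, and the macrophage, B cell and eosinophil sums spread widely among LSK libraries.

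Between MEP and LSK on day 3, 4247 of 28378 genes tested were called at an adjusted p under 0.05 by edgeR's quasi-likelihood test (15.0%). MEP were higher for 2383 genes (8.4%) and lower for 1864 (6.57%), and the median difference over all genes was -0.28. All 4 MEP libraries lay above all 3 LSK libraries for 3775 genes (13.3%) and below them for 4546 (16%). Ranked by size among called genes of moderate or high level without overlap, the first 12 on the MEP side included the red cell genes Cldn13, Rhd and Add2, and the first 12 on the LSK side included the granulocyte genes Mpo and Elane, the macrophage genes Vcam1 and C1qb, and Hmox1. The share of higher against lower calls depended on the scaling: upper quartile factors gave 4595 higher (16.2%) and 1616 lower (5.69%), and a fit of the day 3 libraries alone gave 2372 higher (9.86%) and 3051 lower (12.7%). Leaving the vehicle libraries of batch C out of the fit, whose numbers all recur in batch A, gave 1609 higher (5.96%) and 3030 lower (11.2%), with a median of -0.62. Leaving out LSK replicate 3 left 2206 calls, 735 higher (2.6%) and 1471 lower (5.21%), and leaving out MEP replicate 1 left 2770, 1297 higher (4.58%) and 1473 lower (5.2%). With the number in the library's label as a fixed block, 1759 of 28378 genes were called, 638 higher and 1121 lower.

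**Figure D2:**
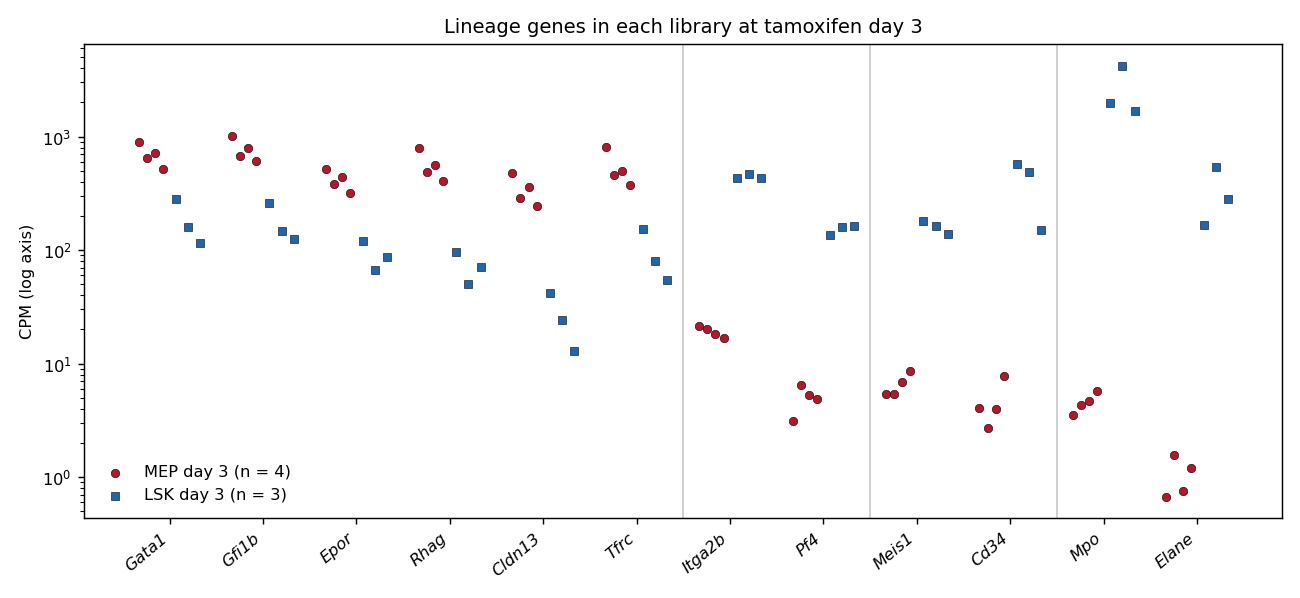
CPM (log axis) of 12 lineage genes in each library at day 3, MEP on the left of each gene and LSK on the right, with a point for each library. Erythroid genes are high in MEP, platelet, stem cell and granulocyte genes are high in LSK, and no gene shown overlaps between the cell types.

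Of 20 genes of erythroid control tested, 9 were higher in MEP, 1 was lower and 10 were not called, with a median difference of 0.93. Gata1, the master factor of erythroid genes, had 896, 641, 716 and 519 CPM in day 3 MEP, against 280.1, 158 and 116 CPM in day 3 LSK. The lowest MEP library was above the highest LSK library, and the difference was 1.91 ± 0.29 (adjusted p = 1.1e-05, edgeR's quasi-likelihood test). Gfi1b, a repressor needed for red cell and platelet formation, had 1003, 678, 799.5 and 613 CPM in day 3 MEP and 258, 146 and 124 CPM in day 3 LSK, a difference of 2.14 ± 0.29 (adjusted p = 1.98e-06). Epor, the erythropoietin receptor, had 519.6, 379, 437 and 317 CPM in day 3 MEP, against 120.1, 66.9 and 87.5 CPM in day 3 LSK (2.17 ± 0.43, adjusted p = 0.000483).

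Klf1, the erythroid Krüppel-like factor, varied widely among MEP. It had 160 CPM in MEP replicate 1 and 777, 383 and 649 CPM in MEP replicates 2 to 4, against 191, 125 and 66.5 CPM in day 3 LSK, so the groups overlapped and it was not called (1.95 ± 0.82, adjusted p = 0.117). The member lower in MEP was Btg2, an antiproliferative gene that is also a p53 target and an immediate early gene, at 30.2, 17.3, 19.1 and 13.7 CPM in day 3 MEP against 74.8, 79.3 and 56.0 CPM in day 3 LSK (-1.81 ± 0.41, adjusted p = 0.00186). Lmo2, the adaptor of the GATA1 complex, and Nfe2, a factor of late erythroid and platelet genes, were not called, at 0.52 and -0.57.

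Red cell membrane and blood group genes were higher in MEP nearly throughout. Of 27 tested, 23 were higher in MEP, none was lower and the median difference was 2.42, and the same 23 were higher under vehicle. Cldn13, a claudin of red cell precursors on chromosome 5 (GRCm38, 134914249 to 134915526), had 477, 289, 356 and 242 CPM in day 3 MEP, against 41.6, 24.2 and 12.9 CPM in day 3 LSK. Its MEP libraries stood well clear of its LSK libraries, with a difference of 3.70 ± 0.56 (adjusted p = 8.87e-06). Rhd, the Rh blood group protein, had 1206, 819.8, 859 and 654 CPM in day 3 MEP and 133, 69.9 and 36.9 CPM in day 3 LSK (3.47 ± 0.52).

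Rhag, the partner that carries Rh proteins to the membrane, had 797, 489.8, 558 and 407 CPM in day 3 MEP, against 95.5, 50.3 and 71.3 CPM in day 3 LSK (2.96 ± 0.44, adjusted p = 6.58e-06). Ermap, an erythroblast membrane protein, had 2126, 1571, 1676 and 1261 CPM in day 3 MEP and 377, 203 and 119 CPM in day 3 LSK (2.83 ± 0.48). Neither gene's groups overlapped. The members not called included Slc4a1, the band 3 anion exchanger of mature red cells, at 0.32, and Tmcc2 at 0.96. The count of 23 was 22 without LSK replicate 3 and 22 without MEP replicate 1.

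The promoters of Rhag and Ermap are shown because both genes stood far apart between the cell types and both windows hold the composite of an E-box element and a GATA site that TAL1 and GATA1 complexes are known to bind. The windows run from 250 bases before to 50 bases after the RefSeq start (GRCm38.p6): chr17:40810899-40811198, plus strand, for Rhag and chr4:119189946-119190245, minus strand, for Ermap. Both are written 5′ to 3′ on the strand of the gene, with capitals marking CTGNNNNNNNNNGATA, which lies on the opposite strand in both, at -30 to -15 in Rhag and at -66 to -51 in Ermap.
Rhag: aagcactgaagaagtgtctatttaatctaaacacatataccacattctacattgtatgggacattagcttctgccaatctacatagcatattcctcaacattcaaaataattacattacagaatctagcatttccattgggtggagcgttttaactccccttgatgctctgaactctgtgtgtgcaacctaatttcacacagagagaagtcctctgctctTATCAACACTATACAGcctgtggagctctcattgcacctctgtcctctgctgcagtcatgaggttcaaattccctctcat
Ermap: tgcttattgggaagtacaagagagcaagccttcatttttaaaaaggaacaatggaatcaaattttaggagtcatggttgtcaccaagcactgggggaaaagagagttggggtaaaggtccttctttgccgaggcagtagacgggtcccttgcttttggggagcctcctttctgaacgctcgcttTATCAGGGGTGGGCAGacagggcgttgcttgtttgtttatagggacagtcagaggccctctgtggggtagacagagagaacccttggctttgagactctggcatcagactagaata
Both strands were searched and neither match overlaps the other motifs searched. The composite was in 2.5% of 27025 RefSeq promoters of this length. The genes and motif were chosen after their values were seen, and a match describes letters and shows no binding.

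Heme and iron genes were largely on the MEP side as well. Of 29 tested, 19 were higher and 2 lower, with a median difference of 1.51, and 18 members were called in the same direction under vehicle. Tfrc, the transferrin receptor that brings in iron, had 816, 463, 493 and 375 CPM in day 3 MEP, against 154, 79.9 and 54.1 CPM in day 3 LSK (2.48 ± 0.38, adjusted p = 1.23e-05). Steap3, an endosomal iron reductase, and Blvrb, a biliverdin reductase of red cells, were higher by 2.41 and 2.35. The iron storage chains Fth1 and Ftl1 were not called, at 0.57 and -0.78. Car1, a red cell carbonic anhydrase counted in the membrane list, was at 5222 to 9296 CPM in day 3 MEP and 685 to 1915 CPM in day 3 LSK.

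Both members that were lower in MEP serve heme breakdown and iron release. Hmox1, heme oxygenase, had 3.96, 3.44, 4.45 and 4.68 CPM in day 3 MEP, against 666, 346 and 2202 CPM in day 3 LSK (-8.02 ± 0.99, adjusted p = 2.88e-07). Slc40a1, the iron exporter ferroportin, had 262, 190.4, 234 and 158 CPM in day 3 MEP, against 675, 410.2 and 2193 CPM in day 3 LSK (-2.37 ± 0.72, adjusted p = 0.0204). In LSK both genes ranked as the macrophage marker sum did, lowest in replicate 2 and highest in replicate 3. Without LSK replicate 3, Slc40a1 had a difference of -1.36 with an adjusted p of 0.374, and it also lost its call without MEP replicate 2 or 4 (adjusted p = 0.0518 and 0.0527).

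No globin gene was called among 8 tested by edgeR's quasi-likelihood test, and DESeq2 called none either. At an unadjusted p under 0.05, 1 was higher, and the median difference was 0.43, which changed sign among scalings, down to -0.03. Hba-a1, an alpha globin chain, had 115, 57.9, 55.8 and 36.8 CPM in day 3 MEP and 29.5, 6.41 and 10.4 CPM in day 3 LSK. Its libraries did not overlap, but the difference of 2.11 ± 1.0 had an adjusted p of 0.183. The beta chains Hbb-b1 and Hbb-b2 were at -0.06 and 0.31. Alpha and beta globin copies are near identical, and the sources used here do not say how reads shared between them were counted.

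Platelet and megakaryocyte genes were lower in MEP than in LSK. Of 39 tested, 29 were lower and 2 higher, with a median difference of -3.03, and 29 members were called the same way under vehicle. Itga2b, the platelet integrin also known as CD41 (chromosome 11, 102453297 to 102470122), had 21.4, 20.2, 18.1 and 16.7 CPM in day 3 MEP, against 435, 468 and 428 CPM in day 3 LSK. Both groups were tight, and the difference was -4.54 ± 0.38 (adjusted p = 2.66e-10). Pf4, the platelet chemokine, had 3.15, 6.46, 5.31 and 4.92 CPM in day 3 MEP and 137, 161 and 163 CPM in day 3 LSK (-4.95 ± 0.60). Plek, the platelet protein pleckstrin, which other blood cells also make, had 0.921 to 2.36 CPM in day 3 MEP and 165 to 182 CPM in day 3 LSK (-6.78 ± 0.63).

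The megakaryocyte list holds the stem cell gene Meis1 too. Its members on the MEP side were P2ry1, a platelet ADP receptor, and Slc14a1, a urea transporter that red cells also carry. Slc14a1 had 565, 409.7, 474 and 354 CPM in day 3 MEP and 279, 204 and 175 CPM in day 3 LSK (1.04 ± 0.28, adjusted p = 0.0103). Without LSK replicate 2 or 3 the adjusted p was 0.0543 or 0.0861. P2ry1 was at 6.21 to 13.8 CPM in day 3 MEP and 1.56 to 6.43 CPM in day 3 LSK, overlapping, with an adjusted p of 0.0467. Its adjusted p was between 0.0599 and 0.349 when any of LSK replicates 2 and 3 or MEP replicates 1 to 3 was left out. Gp1ba, a platelet adhesion receptor chain, and Fyb, an adaptor, were not called, at -0.34 and -0.59.

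Stem cell transcription factors were lower in MEP. Of 30 tested, 20 were lower, none was higher and the median difference was -1.66, and 19 of them were also lower under vehicle, where 26 were. Meis1, a homeobox partner of HOXA9 (chromosome 11, 18879817 to 19018985), had 5.35, 5.38, 6.89 and 8.69 CPM in day 3 MEP, against 179.6, 164 and 139 CPM in day 3 LSK. The groups stood far apart, at -4.61 ± 0.41 (adjusted p = 5.03e-10). Hlf, a factor of long-term stem cells, had 1.35, 2.36, 0.827 and 1.48 CPM in day 3 MEP and 67.6, 22.9 and 14.4 CPM in day 3 LSK (-4.54 ± 0.57). Mecom, the locus of EVI1, had 8.59, 8.49, 6.26 and 7.89 CPM in day 3 MEP and 64.8, 36.6 and 34.1 CPM in day 3 LSK (-2.53 ± 0.30).

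Gata2, which GATA1 replaces as erythroid cells mature, differed less. It had 20.1, 39.4, 25.2 and 22.5 CPM in day 3 MEP, against 60.1, 80.4 and 55.8 CPM in day 3 LSK (-1.29 ± 0.43, adjusted p = 0.036). The groups did not overlap, but the adjusted p was 0.0517 to 0.147 without LSK replicate 1, 2 or 3 or without MEP replicate 1, 3 or 4. Runx1, a factor of definitive blood formation, and Msi2, an RNA-binding protein of stem cells, were not called, at -0.58 and -0.25.

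Surface genes of stem and multipotent cells were mostly lower in MEP. Of 35 tested, 25 were lower and 2 higher, with a median difference of -2.12, and 25 were called the same way under vehicle. Flt3, a receptor of lymphoid-primed progenitors, had 4.45, 6.13, 9.80 and 10.7 CPM in day 3 MEP and 65.4, 79.3 and 16.6 CPM in day 3 LSK (-2.79 ± 0.66, adjusted p = 0.00289). Ctla2a, a protease inhibitor gene, had 0.952 to 2.25 CPM in day 3 MEP and 174 to 310.0 CPM in day 3 LSK (-7.12 ± 0.54). LSK replicate 3 was the lowest of its group for Flt3 and the highest for Ctla2a.

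The members on the MEP side were Abcg2, a transporter of stem cells and erythroid cells, and Itga4, an adhesion integrin. Abcg2 had 261, 164, 208 and 148 CPM in day 3 MEP and 106, 59.1 and 43.0 CPM in day 3 LSK (1.5 ± 0.30, adjusted p = 0.000414). Itga4 had 289.8, 218, 234 and 177 CPM in day 3 MEP and 158, 112 and 78.0 CPM in day 3 LSK (0.98 ± 0.28, adjusted p = 0.0138). Its adjusted p was 0.0585, 0.144 and 0.061 without LSK replicate 2, LSK replicate 3 and MEP replicate 1.

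GIMAP genes, a cluster of small GTPases of lymphoid and stem cells, were lower in MEP for 6 of 8 members, with a median difference of -2.76. Gimap6 had 9.53, 9.60, 6.85 and 9.01 CPM in day 3 MEP and 88.4, 60.5 and 47.3 CPM in day 3 LSK (-2.90 ± 0.41, adjusted p = 3e-06). Under vehicle 7 members were lower, and Gimap6 differed by -5.39. The change in that difference, 2.48 ± 0.59, was not called (adjusted p = 0.166). The list's median change was 1.97, and no member's change was called by edgeR's quasi-likelihood test. At an unadjusted p under 0.05, 4 members moved up and 0 down, and DESeq2 called 2 up. Without vehicle LSK replicate 3, edgeR's test called 1 up.

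Genes of granulocyte progenitors were lower in MEP, and Mpo headed the genes named on the LSK side. Of 30 tested, 20 were lower in MEP, none was higher and the median difference was -3.62, and 19 of the 20 were also lower under vehicle. Mpo, myeloperoxidase (chromosome 11, 87793581 to 87804413), had 3.55, 4.35, 4.64 and 5.72 CPM in day 3 MEP, against 1968, 4220.0 and 1678 CPM in day 3 LSK (-9.16 ± 0.67, adjusted p = 1.69e-11). Elane, neutrophil elastase, had 0.674, 1.57, 0.748 and 1.20 CPM in day 3 MEP and 166, 535 and 284 CPM in day 3 LSK (-8.28 ± 0.61). Prtn3, proteinase 3, had 0.719, 3.39, 1.77 and 1.40 CPM in day 3 MEP and 236, 303 and 194 CPM in day 3 LSK (-7.06 ± 0.65). All 3 are primary granule proteins, and none overlapped between the groups.

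Camp and Ltf, secondary granule genes of later neutrophil stages, were not called, at -0.34 and -1.04, nor was S100a9, at -0.94, while its partner S100a8 was lower by -1.79 (adjusted p = 0.0159). That call was lost without LSK replicate 1 or 3 or MEP replicate 1 or 4, with adjusted p-values of 0.0516 to 0.0723. Lyz2, lysozyme, which macrophages also make, had 3.10, 6.17, 5.71 and 3.92 CPM in day 3 MEP and 803, 467 and 907 CPM in day 3 LSK (-7.26 ± 0.49). The count of 20 was 18 without LSK replicate 3 and 18 without MEP replicate 1.

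The promoters of the primary granule genes are shown because these genes held the extremes and each window holds GAGGAAGT, the letters of a site that ETS factors such as PU.1 are known to bind. Windows run as for the red cell genes: chr11:87793534-87793833 for Mpo, chr10:79886062-79886361 for Elane and chr10:79879417-79879716 for Prtn3, all on the plus strand of GRCm38.p6. Capitals mark the match, at -224 to -217 in Mpo, -85 to -78 in Elane and -95 to -88 in Prtn3, all on the strand of the gene.
Mpo: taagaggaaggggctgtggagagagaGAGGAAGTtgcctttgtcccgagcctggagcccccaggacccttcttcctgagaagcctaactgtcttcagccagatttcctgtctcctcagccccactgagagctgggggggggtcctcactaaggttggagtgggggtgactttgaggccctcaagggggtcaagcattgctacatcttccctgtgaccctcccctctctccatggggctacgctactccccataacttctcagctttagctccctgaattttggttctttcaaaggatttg
Elane: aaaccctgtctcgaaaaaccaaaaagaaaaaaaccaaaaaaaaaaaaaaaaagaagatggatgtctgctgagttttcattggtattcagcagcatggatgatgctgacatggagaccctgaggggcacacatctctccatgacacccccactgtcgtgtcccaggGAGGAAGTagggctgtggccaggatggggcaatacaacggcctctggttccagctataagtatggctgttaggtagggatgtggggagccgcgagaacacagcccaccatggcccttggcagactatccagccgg
Prtn3: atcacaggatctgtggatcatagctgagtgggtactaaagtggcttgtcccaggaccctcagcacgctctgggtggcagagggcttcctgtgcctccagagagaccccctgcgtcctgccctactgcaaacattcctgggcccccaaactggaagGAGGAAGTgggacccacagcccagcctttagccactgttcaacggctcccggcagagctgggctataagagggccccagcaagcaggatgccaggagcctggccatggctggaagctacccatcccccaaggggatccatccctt
Both strands were searched, no match overlaps the other motifs, and 3.28% of the 27025 promoters hold these letters. As above, genes and motif were chosen with the values known, and the match is a description of letters.

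Monocyte, dendritic and macrophage genes were lower in MEP for 25 of 30 members and higher for 1, with a median difference of -4.40. The list mixes progenitor factors with genes of mature macrophages, and the macrophage genes varied with the LSK library. Vcam1, an adhesion molecule of marrow macrophages (chromosome 3, 116109949 to 116129688), had 4.54, 4.51, 5.16 and 6.37 CPM in day 3 MEP, against 776, 403 and 3360.0 CPM in day 3 LSK (-8.20 ± 1.12, adjusted p = 1.73e-06). C1qb, a complement chain of macrophages, had 1.80, 3.81, 1.30 and 2.0 CPM in day 3 MEP and 427, 202 and 844 CPM in day 3 LSK (-7.78 ± 0.95). Csf1r, the receptor of macrophage colony-stimulating factor, had 6.52, 7.58, 7.95 and 9.69 CPM in day 3 MEP and 91.5, 65.5 and 299.5 CPM in day 3 LSK (-4.26 ± 0.56). All 3 were highest in LSK replicate 3 and lowest in LSK replicate 2, the order of the macrophage marker sum given above. Vcam1 and C1qb are themselves members of that sum, so only Csf1r is a separate gene beside it.

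Irf8, the factor that sets monocyte and dendritic fate in progenitors, was even among LSK, with 3.28, 7.62, 9.64 and 10.6 CPM in day 3 MEP and 136, 102 and 119 CPM in day 3 LSK (-3.94 ± 0.58, adjusted p = 7.03e-06). The member on the MEP side was Zbtb46, a factor of dendritic cells that erythroid progenitors are also known to express, at 32.8, 32.8, 41.6 and 26.3 CPM in day 3 MEP and 16.6, 10.9 and 12.2 CPM in day 3 LSK (1.34 ± 0.31, adjusted p = 0.00243).

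Among 28 lymphoid genes, 9 were lower in MEP and none was higher, with a median difference of -0.76. Dntt, the terminal transferase of early lymphoid progenitors, had 1.80, 2.90, 1.89 and 3.76 CPM in day 3 MEP, against 80.0, 33.9 and 7.04 CPM in day 3 LSK (-3.96 ± 0.79, adjusted p = 0.000467). Ighm, the immunoglobulin mu chain, had 0, 1.16, 3.62 and 0.400 CPM in day 3 MEP and 81.2, 54.1 and 6.81 CPM in day 3 LSK (-5.17 ± 0.83). Cd79a and Cd3e, which mark B and T cells, were not called, at -0.78 and -0.74.

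Mast cell, basophil and eosinophil genes were lower in MEP for 13 of 20 members and higher for 1, with a median difference of -4.67. Prss34, a basophil protease, had 1.89, 2.48, 3.74 and 3.76 CPM in day 3 MEP, against 195, 1080.0 and 70.2 CPM in day 3 LSK (-7.23 ± 1.10, adjusted p = 9.93e-06). Prg2, the eosinophil major basic protein, had 0.450, 1.53, 1.38 and 0.881 CPM in day 3 MEP and 4.0, 318 and 1.38 CPM in day 3 LSK. Its groups overlapped, its call (-6.66 ± 1.46, adjusted p = 0.00134) rested on LSK replicate 2, and without that library it was -1.34 with an adjusted p of 0.617. The member on the MEP side was Il1rl1, the IL-33 receptor, at 125, 92.6, 97.4 and 87.5 CPM in day 3 MEP and 40.4, 32.3 and 21.5 CPM in day 3 LSK (1.68 ± 0.37, adjusted p = 0.00168).

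Cytokine receptor, JAK and STAT genes were more often lower than higher in MEP. Of 32 tested, 2 were higher in MEP, 15 were lower and 15 were not called, with a median difference of -0.97. Over all genes tested, 8.4% were higher and 6.57% lower. Epor and Ifngr1, the interferon gamma receptor, were the higher members. Ifngr1 had 656, 514, 570.5 and 431 CPM in day 3 MEP and 332, 249 and 255 CPM in day 3 LSK (0.96 ± 0.29, adjusted p = 0.0224), and its adjusted p was 0.104, 0.111 and 0.0793 without LSK replicate 2, LSK replicate 3 and MEP replicate 1. Csf2rb, the shared chain of the IL-3, IL-5 and GM-CSF receptors, had 1.35, 6.50, 5.04 and 7.29 CPM in day 3 MEP and 84.6, 86.1 and 52.6 CPM in day 3 LSK (-3.88 ± 0.56). Stat4, which relays IL-12, had 6.43, 6.54, 3.54 and 8.37 CPM in day 3 MEP and 60.6, 61.9 and 39.7 CPM in day 3 LSK (-3.12 ± 0.37). Jak1 and Stat6 were not called, at 0.35 and -0.10.

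Genes that STAT5 and cytokines are known to induce were lower in MEP for 7 of 20 members, 6 to 11 among scalings, and higher for none, with a median difference of -0.83. Socs2, a feedback inhibitor, had 6.11, 7.87, 9.13 and 11.8 CPM in day 3 MEP, against 37.0, 20.3 and 23.2 CPM in day 3 LSK (-1.62 ± 0.29, adjusted p = 0.000119). Bcl2, the survival gene, had 2.25, 5.51, 6.10 and 7.12 CPM in day 3 MEP and 63.8, 64.2 and 34.2 CPM in day 3 LSK (-3.36 ± 0.37). Both stood apart without overlap. Myc, a transcription factor gene expressed in both populations, overlapped between 414 to 712 CPM in day 3 MEP and 275 to 569 CPM in day 3 LSK (0.41 ± 0.43).

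Interferon-stimulated genes were mixed: of 44 tested, 3 were higher in MEP and 14 lower, with a median difference of -0.46. Ifit3, a translation inhibitor of the antiviral response, had 0.450, 1.24, 0.630 and 0.761 CPM in day 3 MEP, against 23.1, 16.1 and 26.8 CPM in day 3 LSK (-4.82 ± 0.67, adjusted p = 2.14e-06). Irf1, an interferon-induced factor, had 4.58, 30.2, 12.9 and 6.88 CPM in day 3 MEP and 99.8, 64.5 and 53.6 CPM in day 3 LSK (-2.41 ± 0.55, adjusted p = 0.00222). Isg20, an exonuclease, ran the other way, with 208, 151, 175 and 114 CPM in day 3 MEP and 53.2, 44.6 and 20.1 CPM in day 3 LSK (2.04 ± 0.31).

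The other members higher in MEP were Oasl1, which restrains interferon production, and Lgals9, a galectin. Oasl1 was at 80.6 to 109 CPM in day 3 MEP and 13.6 to 40 CPM in day 3 LSK (1.71 ± 0.42), and Lgals9 was at 1554 to 2474 CPM in day 3 MEP and 547 to 1336 CPM in day 3 LSK (1.25 ± 0.32). Without LSK replicate 3 neither was called (adjusted p = 0.0623 and 0.0773). Under vehicle 27 of the 44 genes were lower in MEP and 2 higher, with a median of -1.42. No member's difference changed between vehicle and day 3 by edgeR's quasi-likelihood test, while 17 moved up and 1 down at an unadjusted p under 0.05 and DESeq2 called 2 up. With vehicle of batch C as the reference, edgeR's test called 4 up and 0 down.

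Most genes of the mitosis, replication, ribosome and oxidative phosphorylation lists were higher in MEP, with medians near 1 on the log2 scale or below. The 8808 genes with a mean of at least 10 CPM leaned the same way, with 2231 higher, 968 lower and a median of 0.44, but scaled and fitted on their own they gave 1883 higher (21.4%), 1989 lower (22.6%) and a median of 0.0011. Of 35 mitosis genes, 22 were higher and 1 lower, with a median difference of 0.83. Of 40 DNA replication genes, 26 were higher and none lower, with a median of 0.95. Ribosomal protein genes were higher for 28 of 31 members, ribosome biogenesis genes and MYC targets for 25 of 30, oxidative phosphorylation genes for 24 of 34 and mitochondrially encoded mRNAs for 5 of 12, with none lower and medians of 1.14, 1.04, 1.05 and 0.93. Cholesterol genes were higher for 5 of 24 and lower for 1, with a median of 0.38.

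These counts leaned on LSK replicate 3, in contrast to those of the erythroid, platelet, stem cell and granulocyte lists. Without that library, 5 mitosis, 8 replication, 5 ribosomal protein, 5 ribosome biogenesis, 7 oxidative phosphorylation, 0 mitochondrially encoded and 0 cholesterol genes were higher by edgeR's quasi-likelihood test. Without MEP replicate 1 the counts in that order were 11, 12, 22, 12, 13, 3 and 3. Among scalings, 14 to 31 mitosis, 18 to 35 replication, 25 to 29 ribosomal protein, 21 to 29 ribosome biogenesis, 18 to 31 oxidative phosphorylation, 3 to 7 mitochondrially encoded and 5 to 12 cholesterol genes were higher, and each list's median kept its sign.

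Mki67, the proliferation antigen, had 438, 369, 371 and 288 CPM in day 3 MEP, against 235, 191 and 83.5 CPM in day 3 LSK (1.11 ± 0.27, adjusted p = 0.00378), and its adjusted p was 0.0544 without LSK replicate 3. Cdc6, which loads replication origins, had 667, 422, 450.5 and 374 CPM in day 3 MEP and 186, 149 and 85.8 CPM in day 3 LSK (1.77 ± 0.29, adjusted p = 3e-05). Npm1, a nucleolar chaperone, had 2541, 2326, 2419 and 1855 CPM in day 3 MEP and 1259, 992 and 616 CPM in day 3 LSK (1.26 ± 0.31), with an adjusted p of 0.00452 that was 0.0559 without LSK replicate 3. LSK replicate 3 was the lowest library for each of these genes, and MEP replicate 4 was the lowest MEP library. Ndufv1, a subunit of respiratory complex I, had 638, 418, 484 and 354 CPM in day 3 MEP and 249, 189.8 and 116 CPM in day 3 LSK (1.36 ± 0.29). The mitosis gene that was lower in MEP, Cep55, an abscission factor, had 2.70, 4.39, 5.0 and 3.96 CPM in day 3 MEP against 40.9, 38.8 and 18.6 CPM in day 3 LSK (-3.03 ± 0.47, adjusted p = 1.34e-05).

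Among 22 G1 cyclins, CDKs and CDK inhibitors, 5 were higher and 2 lower in MEP. Over all genes tested, 8.4% were higher and 6.57% lower. Of the 8808 genes of at least 10 CPM, 2231 were higher and 968 lower, a share close to that of the list. Ccne1, cyclin E1 of the G1 to S step, had 42.4, 28.1, 33.6 and 20.1 CPM in day 3 MEP, against 7.04, 6.29 and 3.59 CPM in day 3 LSK (2.46 ± 0.38, adjusted p = 1.12e-05). Ccnd2, cyclin D2, and Cdkn2d, the inhibitor p19, were lower by -1.48 and -1.28. The list's median was 0.14 and changed sign among scalings, between -0.21 and 0.36.

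Glycolysis genes went both ways. Of 23 tested, 3 were higher in MEP and 8 lower, with a median of 0.03 that ran from -0.36 to 0.24 among scalings. Pkm2, the symbol used in the table for the muscle-type pyruvate kinase gene, had 4.63, 10.3, 7.91 and 10.3 CPM in day 3 MEP, against 984, 851 and 560.1 CPM in day 3 LSK (-6.59 ± 0.52, adjusted p = 4.99e-11). Pklr, which encodes the liver and red cell pyruvate kinase, had 213, 152, 171 and 132 CPM in day 3 MEP and 38.2, 17.4 and 12.3 CPM in day 3 LSK (2.88 ± 0.51, adjusted p = 0.000104). The groups did not overlap for either gene. Hk2, a hexokinase, was lower by -2.19. Hk1, another hexokinase, was higher by 0.93 (adjusted p = 0.0434), a call that was lost without LSK replicate 2 or 3 or MEP replicate 1, 2 or 3, with adjusted p-values of 0.0671 to 0.282. Gapdh was not called, at 0.34.

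Stress and survival lists had members called in both directions, and most members of each were not called. Over all genes tested 15.0% were called, and of the 8808 genes of at least 10 CPM, 2231 were higher and 968 lower. Of 24 ATF4 and amino acid stress genes, 5 were higher, 3 to 11 among scalings, and 2 lower, and Asns, asparagine synthetase, had 859, 621, 593 and 452 CPM in day 3 MEP, against 168, 76.4 and 57.8 CPM in day 3 LSK (2.65 ± 0.37, adjusted p = 2.62e-06). Of 24 p53 targets, 3 were higher and 5 lower, with Cdkn1a and Mdm2 not called at 0.18 and 0.35. Ccng1, a p53-induced cyclin, had 376, 229, 288 and 202 CPM in day 3 MEP and 139.9, 109.7 and 64.4 CPM in day 3 LSK (1.39 ± 0.47, adjusted p = 0.0408), with adjusted p-values of 0.106, 0.252, 0.139 and 0.0741 without LSK replicate 2, LSK replicate 3, MEP replicate 1 and MEP replicate 3. Of 21 BCL2 family genes, 4 were higher, including Bcl2l11, the death inducer BIM, at 1.51, and 4 lower. Of 27 genes that recur as cooperating mutations in myeloproliferative neoplasms, 6 were higher and 3 lower, but among scalings 3 to 11 were higher and 3 to 11 lower, so the balance of calls turned. The medians of the amino acid stress, p53, BCL2 family and neoplasm lists were 0.29, 0.12, -0.46 and 0.31 and changed sign among scalings.

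Immediate early genes, which cells switch on within minutes of a stimulus or of handling, were lower in MEP for 11 of 23 members and higher for none, with a median of -1.78. Among scalings 5 to 15 were lower, the fewest where only genes of at least 10 CPM were fitted, which left 8 members. Zfp36, an mRNA decay factor, had 8.09, 7.41, 4.96 and 5.64 CPM in day 3 MEP, against 95.9, 82.3 and 105 CPM in day 3 LSK (-3.86 ± 0.40, adjusted p = 1.06e-08). Egr1 and Fos were lower by -2.86 and -2.71, Fos with an adjusted p of 0.0128 that was 0.0533 without LSK replicate 3, while Junb and Ier2 were not called, at -1.57 and -1.44.

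**Figure D3:**
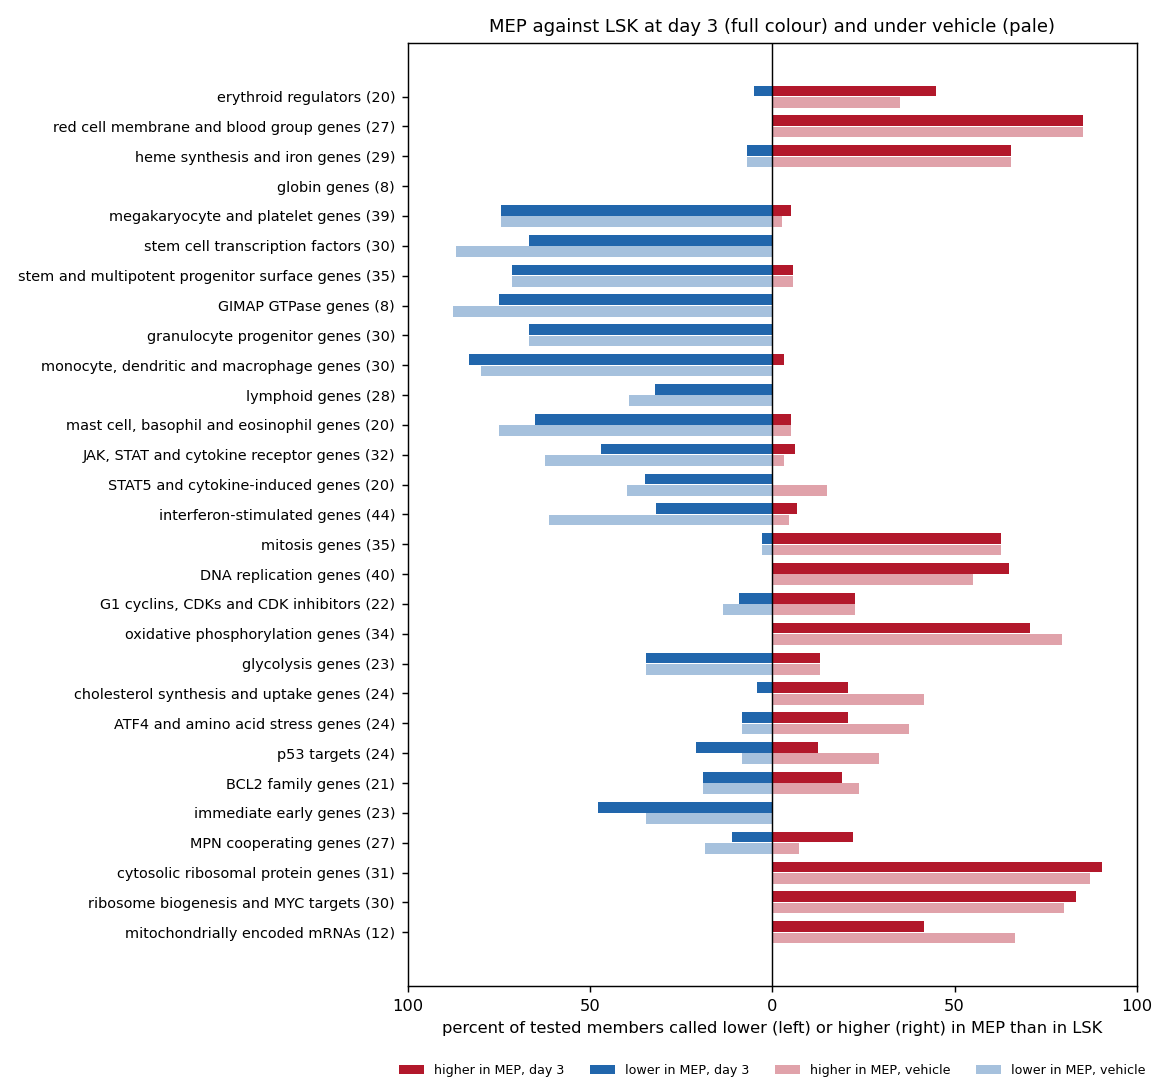
Percent of each list's tested members (number in brackets) called higher in MEP (bars to the right) or lower (bars to the left), at day 3 in full colour and under vehicle in pale colour. Membrane, heme, replication and ribosome lists lie to the right, megakaryocyte, stem cell and myeloid lists to the left, and the globins show no bar.

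The next comparison asked which of the lineage differences on day 3 were also present in vehicle-treated mice, where the allele was still on. Under vehicle, 4941 of 28378 genes were called (17.4%), 2468 higher in MEP (8.7%) and 2473 lower (8.71%). Here too the balance moved with the scaling, to 5046 higher (17.8%) and 1790 lower (6.31%) with upper quartile factors and to 1985 higher (7.35%) and 3918 lower (14.5%) without the vehicle libraries of batch C. Of the 4941 genes, 3393 were called in the same direction on day 3, which is 68.67% of the genes called under vehicle and 79.89% of those called on day 3. The shared genes were 1873 higher and 1520 lower in MEP. A further 851 genes were called on day 3 alone and 1545 under vehicle alone, and 95.53% and 92.04% of them had the same sign in the other comparison. Without 1 library at a time the share of vehicle calls held on day 3 ran from 40.81% to 75.1%.

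A call in one comparison and not in the other does not show a change, so the difference of the differences was tested. Between day 3 and vehicle, 15 of 28378 genes changed their MEP minus LSK difference (0.0529%), 6 upward (0.0211%) and 9 downward (0.0317%), by edgeR's quasi-likelihood test, and 997 passed an unadjusted p under 0.05. DESeq2 called 73. No member of the red cell membrane, heme, megakaryocyte, stem cell factor or granulocyte lists changed by edgeR's quasi-likelihood test. At an unadjusted p under 0.05, 4 red cell membrane, 5 heme, 2 megakaryocyte, 2 stem cell factor and 1 granulocyte genes moved, and DESeq2 called 1 heme and 1 granulocyte gene. Without vehicle LSK replicate 3, edgeR's test called 2 heme genes, 1 granulocyte gene and 7 of 30 monocyte, dendritic and macrophage genes, all downward. Against vehicle of batch C it called 1 heme gene downward and 1 monocyte, dendritic or macrophage gene upward. The count of 15 was sensitive to single libraries: it was 54, with 14 upward and 40 downward, without vehicle LSK replicate 3, the vehicle library with 2005 CPM of macrophage markers, and 24 without vehicle LSK replicate 1. It was 8 without day 3 LSK replicate 3, 7 without day 3 MEP replicate 3, and 9, 6 and 9 without vehicle MEP replicates 1, 2 and 3.

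**Figure D4:**
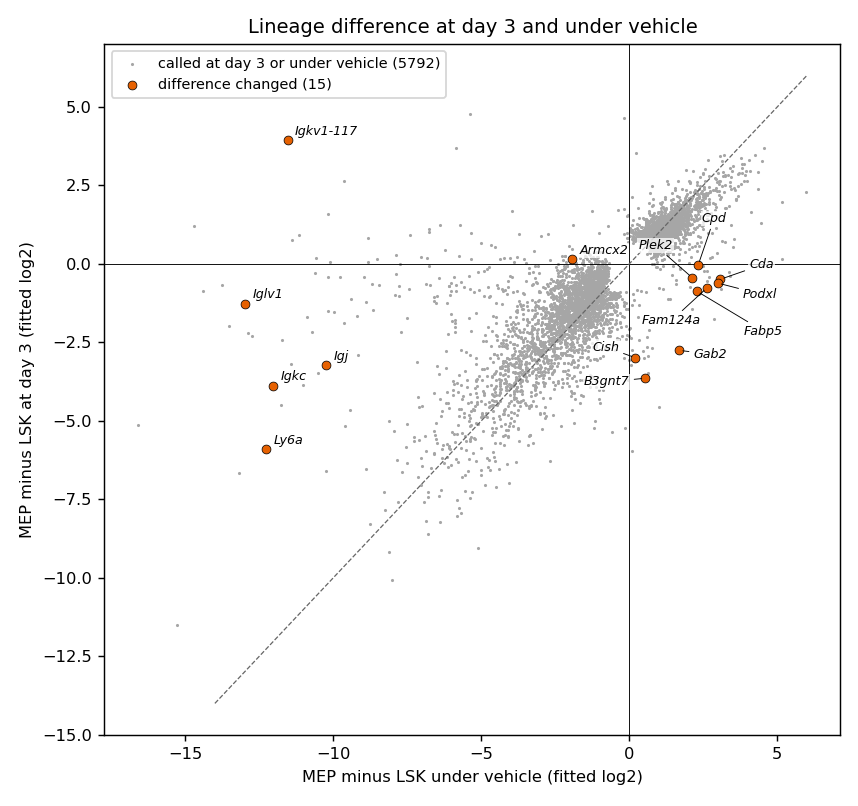
Fitted log2 MEP minus LSK difference at day 3 (vertical axis) against the same under vehicle (horizontal axis) for the 5792 genes called in either comparison (grey), with the 15 genes whose difference changed in orange and equality dashed. Most genes lie in the quadrants of equal sign, and the changed genes lie below the line on the right and above it on the left.

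The downward changes came mostly from genes that were high in vehicle MEP and low in day 3 MEP. Podxl, the sialomucin podocalyxin (chromosome 6, 31519488 to 31563981), had 1.39, 1.03, 0.866 and 1.96 CPM in day 3 MEP and 1.56, 2.14 and 2.35 CPM in day 3 LSK, against 39.2, 56.4 and 33.5 CPM in vehicle MEP and 5.02, 5.93, 3.94 and 6.77 CPM in vehicle LSK. The MEP libraries overlapped LSK on day 3 and stood above them under vehicle, a change of -3.60 ± 0.45 (adjusted p = 4.09e-05). Fabp5, a fatty acid binding protein, had 34.1, 30.1, 28.8 and 26.6 CPM in day 3 MEP and 61.3, 53.7 and 49.8 CPM in day 3 LSK, against 265, 493 and 267 CPM in vehicle MEP and 57.5, 93.9, 54.6 and 73.8 CPM in vehicle LSK (change -3.17 ± 0.39, adjusted p = 4.09e-05). It was called lower in MEP on day 3 (-0.88, adjusted p = 0.0269, between 0.0532 and 0.0851 without any of LSK replicates 1 to 3 or MEP replicates 2 to 4) and higher under vehicle (2.29). Cpd, a carboxypeptidase of the secretory pathway, had 13.5, 13.5, 9.41 and 12.4 CPM in day 3 MEP and 13.5, 12.9 and 11.2 CPM in day 3 LSK, against 86.2, 83.0 and 63.6 CPM in vehicle MEP and 15.1, 12.1, 15.9 and 18.9 CPM in vehicle LSK (change -2.36 ± 0.32, adjusted p = 0.000133). Podxl, Fabp5 and Cpd were called in all 25 alternatives run for the change.

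Cda, cytidine deaminase, had 2.16, 2.61, 3.31 and 3.84 CPM in day 3 MEP and 3.71, 3.20 and 5.71 CPM in day 3 LSK, against 45.6, 59.2 and 30.4 CPM in vehicle MEP and 4.98, 5.27, 6.59 and 4.54 CPM in vehicle LSK (change -3.57 ± 0.49, adjusted p = 0.000176). Fam124a had 1.26 to 3.36 CPM in day 3 MEP and 2.27 to 4.69 CPM in day 3 LSK, against 22.9 to 34.8 CPM in vehicle MEP and 1.32 to 8.10 CPM in vehicle LSK (change -3.39 ± 0.64, adjusted p = 0.0198). Plek2, a pleckstrin family member of erythroblasts that works downstream of JAK2 and STAT5, had 4.41, 4.22, 2.83 and 7.04 CPM in day 3 MEP and 6.75, 5.49 and 6.67 CPM in day 3 LSK, against 21.1, 58.9 and 34.9 CPM in vehicle MEP and 9.16, 7.40, 9.02 and 9.44 CPM in vehicle LSK. These 3 genes shared a pattern, with MEP overlapping LSK on day 3 and above it under vehicle. The call of Plek2 was marginal (change -2.57 ± 0.53, adjusted p = 0.0493) and held in 9 of 25 alternatives, with an adjusted p of 0.443 without vehicle MEP replicate 2, while that of Fam124a held in 12 of 23.

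In Gab2 and B3gnt7, day 3 MEP lay below all day 3 LSK. Gab2, an adaptor of cytokine receptors, had 0.450, 4.06, 0.708 and 3.44 CPM in day 3 MEP and 14.5, 15.3 and 14.2 CPM in day 3 LSK, against 65.8, 36.4 and 44.0 CPM in vehicle MEP and 6.93, 33.2, 8.20 and 12.3 CPM in vehicle LSK (change -4.44 ± 0.69, adjusted p = 0.00177). It was thus lower in MEP on day 3 (-2.76) and higher in MEP under vehicle (1.68). B3gnt7, a glycosyltransferase, had 0.584, 1.16, 0.394 and 1.76 CPM in day 3 MEP and 11.1, 10.7 and 15.0 CPM in day 3 LSK, against 19.4, 42.6 and 19.2 CPM in vehicle MEP and 11.2, 32.5, 10.9 and 19.9 CPM in vehicle LSK (change -4.18 ± 0.69, adjusted p = 0.00419). Day 3 MEP were the lowest libraries for both genes. Olfr309, an olfactory receptor gene, was with Gab2 and Fabp5 the only gene called in opposite directions on day 3 and under vehicle. Its day 3 call (adjusted p = 0.046) was lost whichever day 3 library was left out, with adjusted p-values of 0.0525 to 0.151. It lay at or below 0.197 CPM in day 3 MEP and at 0 in day 3 LSK, against 0 in vehicle MEP and at most 0.504 CPM in vehicle LSK, and its change was not called (adjusted p = 0.166).

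Cish, a STAT5-induced inhibitor of cytokine receptors, had 0.315, 0.911, 0.354 and 0.761 CPM in day 3 MEP and 3.50, 5.04 and 5.57 CPM in day 3 LSK, against 34.0, 20.4 and 13.1 CPM in vehicle MEP and 13.4, 31.0, 15.9 and 17.7 CPM in vehicle LSK. MEP and LSK overlapped under vehicle, all day 3 libraries lay below all vehicle libraries, and day 3 MEP lay below all day 3 LSK (day 3 difference -2.99 ± 0.45, adjusted p = 9.5e-06, and change -3.19 ± 0.60, adjusted p = 0.0198). The change was called in 15 of 25 alternatives, with adjusted p-values of 0.0503 to 0.141 without day 3 LSK replicate 2 or 3, day 3 MEP replicate 1 or 3, vehicle LSK replicate 4 or vehicle MEP replicate 1 or 2. Cish and Podxl are the members of the STAT5 list that changed. In all, 6 members moved down and 2 up at an unadjusted p under 0.05.

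The Cish promoter is shown because its window (chr9:107296409-107296708, plus strand, GRCm38.p6) holds a pair of matches to TTCNNNGAA, the letters of a STAT site, in capitals at 1 to 9 and 12 to 20 after the start on the strand of the gene.
Cish: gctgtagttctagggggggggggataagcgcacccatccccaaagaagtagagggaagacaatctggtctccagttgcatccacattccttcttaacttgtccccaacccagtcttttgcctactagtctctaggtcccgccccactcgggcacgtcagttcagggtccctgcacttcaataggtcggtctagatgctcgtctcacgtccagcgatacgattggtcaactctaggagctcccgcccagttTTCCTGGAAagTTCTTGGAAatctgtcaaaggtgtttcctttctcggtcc
Both strands read the same in this motif, the matches overlap no other motif searched, and 8.47% of the 27025 promoters hold it.

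**Figure D5:**
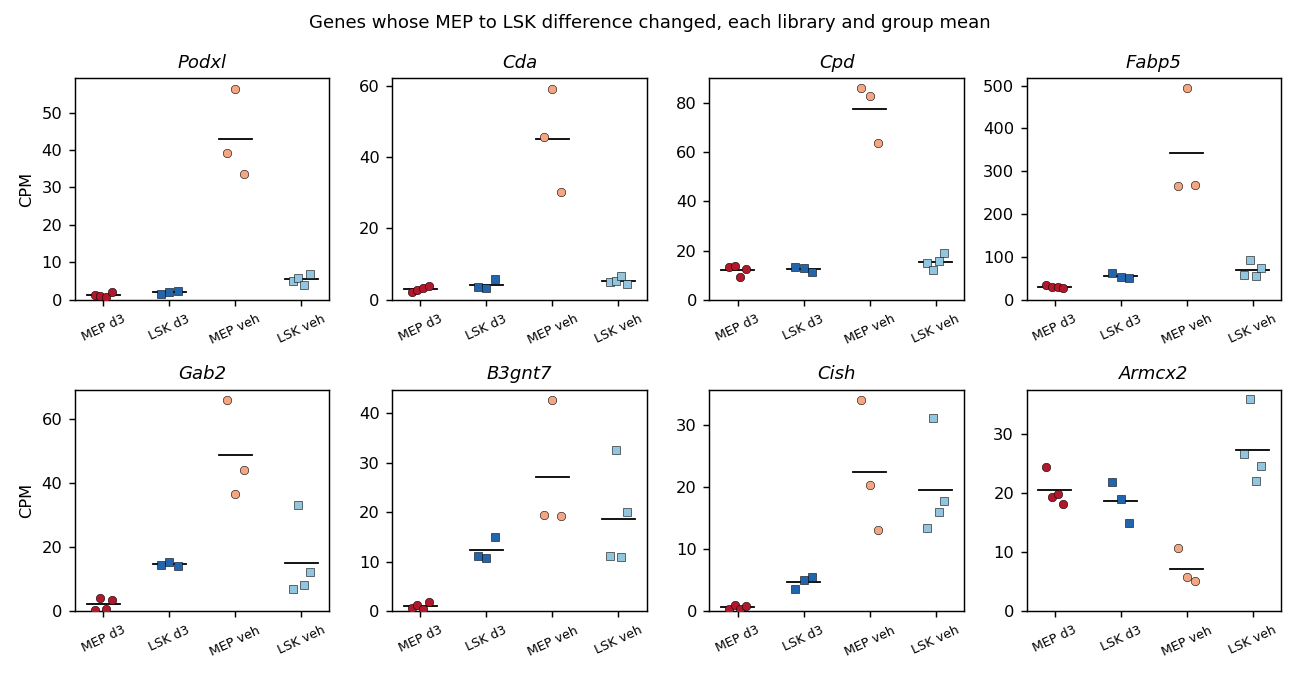
CPM (linear axis) of 8 genes with a changed difference, for MEP and LSK at day 3 and under vehicle, with a point for each library and a bar at each group mean. Podxl, Cda, Fabp5 and Cpd stand high in vehicle MEP alone, and Cish is lowest in day 3 MEP.

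The upward changes were a gate gene, immunoglobulin genes and Armcx2. Armcx2, an armadillo repeat protein gene, had 24.4, 19.3, 19.8 and 18.1 CPM in day 3 MEP and 21.8, 18.9 and 14.9 CPM in day 3 LSK, against 10.7, 5.69 and 5.09 CPM in vehicle MEP and 26.6, 35.9, 22 and 24.4 CPM in vehicle LSK (change 2.07 ± 0.39, adjusted p = 0.0198). It was called in 17 of 25 alternatives, and its adjusted p was 0.0541 to 0.142 without day 3 LSK replicate 2 or 3, day 3 MEP replicate 1 or 3, or vehicle MEP replicate 2 or 3. Ly6a had 10, 10, 13 and 5 counts in day 3 MEP and 1041, 465 and 236 counts in day 3 LSK. Under vehicle it had 0, 0 and 1 count in MEP and 1518, 4203, 1038 and 2304 counts in LSK. In CPM, vehicle LSK stood at 47.5 to 163, above every day 3 LSK library. The change of Ly6a had an adjusted p of 0.00871 by edgeR's quasi-likelihood test, with 0.0637 and 0.0847 without vehicle MEP replicates 1 and 2. Its fitted size of 6.35 depends on the prior count and is no bound, and Ly6a protein set the LSK gate.

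Igj, Igkc, Iglv1 and Igkv1-117, genes of antibody-secreting cells, made up the other upward changes. Igkc had 0.450, 5.01, 8.54 and 0.841 CPM in day 3 MEP and 11.5, 139 and 13.8 CPM in day 3 LSK, against 0.671, 0.255 and 0.428 CPM in vehicle MEP and 125, 423, 1116 and 5888 CPM in vehicle LSK. Igj was likewise at 0.225 to 1.85 CPM in day 3 MEP and 3.13 to 22.6 CPM in day 3 LSK, against 0.413 to 0.977 CPM in vehicle MEP and 78.2 to 2863 CPM in vehicle LSK. The sum of 4 B and plasma cell markers moved with them, at 3.73 to 14.0 CPM in day 3 MEP and 23.2 to 196 CPM in day 3 LSK, against 2.22 to 3.61 CPM in vehicle MEP and 348 to 6331 CPM in vehicle LSK, and its part in the result was not tested. Adjusted p-values by edgeR's quasi-likelihood test were 0.0325 for Igj, 0.0421 for Igkc, 0.01 for Iglv1 and 0.0198 for Igkv1-117. Leaving out single libraries ended each call, with adjusted p-values up to 0.205, 0.26, 0.0833 and 0.966. In that order the genes were called in 12, 12, 20 and 14 of 25 alternatives. With vehicle of batch C as the reference, Igj, Igkc, Igkv1-117 and Ly6a were not called, while Iglv1 and Armcx2 were.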

How the data were processed

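The authors deposited whole-number read counts, not normalized, for each gene symbol and library. Per the labels' protocols, sorted cells went into TriZOL, RNA was purified by Direct-Zol, and a Takara HT-Seq kit gave paired-end libraries. STAR, featureCounts and the mm10 build are named in the submitters' processing notes. The sources used here do not state the annotation, the strandedness or how multiply aligned reads were treated, so overlapping genes, antisense partners and near-identical copies may share reads. No PCR correction by molecular identifiers is stated.

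Of 33924 genes in the table, 933 had no count in any library, and 28378 passed filterByExpr at a minimum count of 10. The groups of all 32 libraries (10 groups) were fitted together with edgeR 4.0.16 in R 4.3.3, using TMM factors and the quasi-likelihood F test, with Benjamini-Hochberg adjustment over all genes tested and calls at an adjusted p under 0.05. The change is the day 3 difference minus the vehicle difference. The steps were tested on simulated data. CPM values use TMM-scaled library sizes.

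The compared libraries, the 29 gene lists and the marker lists were chosen with earlier results of these data known, so counts over a list are descriptions. Of 779 list members, 775 were found in the table, 14 of them by an older symbol. Positions are those of GENCODE M21 (GRCm38), which placed 30927 genes (91.2%) once. Promoters are RefSeq windows, which matched 15246 of the genes tested by symbol and all 6 genes chosen for printing, so no share over called genes was computed.

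Named were the gate genes, the 12 largest called differences in each direction without overlap and with a mean log2 CPM of at least 4, the changed genes by the same level rule, and for each list up to 6 called and 3 abundant members not called. Named after their values were seen were the members called against most of their list, Cda, Fam124a, Cish, Plek2, Igkc, Iglv1, Igkv1-117, Olfr309, Ermap, Gata2 and Mki67, and the marker genes. Some genes the rule names are not reported here.

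Alternatives were RLE and upper quartile factors, DESeq2 1.42.0, no count filter, only genes with a mean of at least 10 CPM, only the groups compared, limma 3.58.1 voom with the number as a random block, the number as a fixed block, each replicate left out, vehicle of batch C, and, chosen after seeing the data, a GC offset and a fit without the vehicle libraries of batch C. The smallest chi-square per degree of freedom between libraries of a compared group was 15.8, above sampling noise. All 5 vehicle libraries of batch C share cell type and number with one of batch A. These pairs differed by 45.1 to 105 on that scale and other pairs across the batches by 74.3 to 207, so none is a copy, but the fit of all libraries takes them as independent. Batch A holds every library compared.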

Additional observations from a re-analysis of the deposited data

Results flagged for a closer look

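Among 107 groups of printed values, 8 had a library standing apart from the rest of its group, and chance gives about 1 in 20. In day 3 MEP these were Fcgr3 in replicate 4, at 3.96 CPM, and Oasl1 in replicate 3, at 109 CPM. In vehicle LSK, replicate 3 stood apart for Hmox1 (766 CPM), Slc40a1 (635 CPM), Vcam1 (1298 CPM) and C1qb (470.5 CPM), replicate 2 for Irf1 (276 CPM), and replicate 4 for Igj (2863 CPM).

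The MEP minus LSK difference changed between day 3 and vehicle for 15 genes by the test of that change. The fitted log2 changes were -4.44 for Gab2, -4.18 for B3gnt7, -3.60 for Podxl, -3.57 for Cda, -3.39 for Fam124a, -3.19 for Cish, -3.17 for Fabp5, -2.57 for Plek2, -2.36 for Cpd and 2.07 for Armcx2. Those of Ly6a, Igj, Igkc, Iglv1 and Igkv1-117 were 6.35, 7.02, 8.16, 11.71 and 15.47, where near-zero counts in a group make the size depend on the prior count.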

How the results depend on the processing

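On day 3, 4247 genes were called, 2206 to 4484 with a replicate left out, lowest without LSK replicate 3 and 2770 without MEP replicate 1. Left-out ranges were 3622 to 5288 of 4941 under vehicle, 6 to 54 of 15 for the change, 22 to 23 for red cell membrane, 16 to 19 for heme, 27 to 29 for megakaryocyte, 15 to 19 for stem cell factor and 18 to 20 for granulocyte genes, and 40.81% to 75.1% for the share of vehicle calls held. The change gave 73 genes with DESeq2, 28 in expressed genes, 42 with the GC offset and 24 without the vehicle libraries of batch C (both chosen after seeing the data), 7 in the groups alone, 32 against vehicle of batch C and 7 with voom, and the cause was not tested. MEP and LSK libraries of the same number may come from the same animal, which the labels do not state. They correlated at -0.18 to 0.32 over 10 pairs, 2 of them over 0.1, and so few libraries per group cannot settle whether they are paired. A replicate block gave 1759 genes on day 3 (638 higher, 1121 lower) and 1791 under vehicle (1190 higher, 601 lower). It gave 26 for the change and 13 stem cell factors, with 5 residual degrees of freedom over all libraries. The median of all genes moved by -0.12 with RLE, 0.20 with upper quartile and -0.12 with DESeq2. Without vehicle of batch C it moved by -0.34, over 27002 genes tested instead of 28378. Fits of expressed genes hold fewer genes, so their medians are not shifts of that kind. The 8808 expressed genes had a median of 0.44 in the main fit and 0.0011 when fitted alone. With the GC offset, 8704 genes had a median of 0.0271. No called named gene changed sign in the alternatives run. The depth of LSK, down to 12423165 counts, limits low genes.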
